A study of Ovis aries with 6 samples.

Results

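MMP, ADAMTS and TIMP genes were described in sheep cells of the adipose stromal vascular fraction with and without forced expression of MEOX2, a homeobox transcription factor. They comprised every row of the deposited gene table whose name begins with MMP, ADAMTS or TIMP directly followed by a digit, 40 of 26425 rows, of which 37 were proteases (18 MMP and 19 ADAMTS) and 3 were TIMP inhibitors. Of 6 RNA sequencing libraries, 3 came from cells overexpressing MEOX2 and 3 from the control group labelled NC, and no other treatment, time or animal age is given in the labels. Columns of both groups bear the tag pHBLV in the table, which the labels leave unexplained. The labels call the cells adipocytes and do not say whether libraries of a group came from separate cultures or animals, so p-values measure only the spread between these libraries, which may be technical. Values were FPKM, reads scaled to gene length and library size, and a gene is called where limma on log2(FPKM + 1) gave an adjusted p under 0.05 over the 13121 genes that averaged 1 FPKM or more.

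Matrix metalloproteinases (MMP) and ADAMTS enzymes are zinc-dependent proteases that act on the matrix around cells. MMPs are made as inactive precursors and cut collagens, gelatin and other matrix proteins, some at the cell surface, whereas ADAMTS enzymes are secreted and process procollagens, large proteoglycans and other matrix components. TIMPs bind the active site of these enzymes and block it, TIMP3 being the one that also blocks several ADAMTS proteases. Remodelling of the matrix by these enzymes accompanies the growth of adipose tissue and the conversion of precursors to fat cells.

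Recovered whole reads totalled 11772772 to 12230863 per library. MEOX2 itself reached 152.7, 107.7 and 138.4 FPKM in the overexpressing libraries, against 10.8, 10.1 and 9.03 FPKM in NC (exact two-sided permutation p = 0.1, the smallest that 3 against 3 allow). Over all genes tested, 198 were called higher (1.51%) and 152 lower (1.16%), and the second principal component (22.2% of variance) set NC sample 3 apart from the rest. Neither limma nor limma voom called any of 10 stromal progenitor markers tested (4 had an unadjusted p under 0.05), and the 12 measured summed to 28896 to 32483 FPKM in MEOX2 libraries and 27366 to 28560 FPKM in NC. Some of them were scarce: CD34 averaged 0.642 FPKM in MEOX2 libraries and 1.37 FPKM in NC without overlap, PI16 0.195 FPKM in MEOX2 libraries and 0.254 FPKM in NC, and LY6E 0.610 FPKM in MEOX2 libraries and 0.203 FPKM in NC. In 4 of the 10 tested, PDGFRA, DCN, LUM and VIM, every MEOX2 library lay above every NC library (9.60% of all genes tested). CD34 was the 1 of the 10 that lay below (9.33% of all genes tested). LEP, which mature fat cells make, was listed at 0 in all 6 libraries. Of 5 mature adipocyte markers tested, 4 (ADIPOQ, FABP4, PLIN1 and CIDEC) were called lower with MEOX2 (1.16% of all genes tested). The other, LPL, was level at 39.7 FPKM in MEOX2 libraries and 39.5 FPKM in NC. The 7 measured summed to 117 to 141 FPKM in MEOX2 libraries and 284 to 339 FPKM in NC. Most of that sum was FABP4 in both groups, with means of 79.6 FPKM in MEOX2 libraries and 235 FPKM in NC. Of 6 smooth muscle and pericyte markers tested, 2 (CNN1 and CSPG4) were called higher with MEOX2 (1.51% of all genes tested). Without overlap, 3 of the 6 lay above NC and 1, MCAM, lay below (9.60% and 9.33% of all genes tested). The 8 measured summed to 585 to 622 FPKM in MEOX2 libraries and 487 to 499 FPKM in NC. Most of that sum was TAGLN, with means of 502 FPKM in MEOX2 libraries and 415 FPKM in NC. TAGLN was not called (limma adjusted p = 0.0819). Of 6 macrophage and leukocyte markers tested, S100A8 and S100A9 were lower. CD14, the most abundant of the 12 measured, averaged 117 FPKM in MEOX2 libraries and 105 FPKM in NC. It was not called (limma adjusted p = 0.450). Without overlap, 1 of the 6 tested (CD14) lay above NC and 3 lay below (9.60% and 9.33% of all genes tested). The 12 summed to 135 to 146 FPKM with MEOX2 and 141 to 155 FPKM in NC. The pan-leukocyte marker PTPRC had at most 2 reads in any library. Endothelial markers summed to at most 3.40 FPKM with MEOX2 and 3.18 FPKM in NC. In bulk RNA, fewer cells of a type and less RNA per cell cannot be told apart, and the part of these markers in the results that follow was not tested.

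Among 22 proteases tested, 1 was called, ADAMTS5, which was lower in cells overexpressing MEOX2; none was called higher. ADAMTS5, an aggrecanase that cuts aggrecan and versican, was at 2.71 ± 0.0363 FPKM in MEOX2 libraries and 5.72 ± 0.118 FPKM in NC (SD, n = 3 each, as for every ± here). None of the 3 TIMP genes was called by limma or by limma voom on the recovered reads, while 1 of them, TIMP2, had an unadjusted p under 0.05 (13.4% of all genes tested did). Among the proteases 1 of 22 was called, against 2.67% of all genes tested; by limma voom it was 2 of 22, ADAMTS5 and ADAMTS7, against 4.37%. A single called gene of 22 is no result about the family as a group.

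The levels spanned more than 5 orders of magnitude. MMP2, the gelatinase that cuts denatured collagen and basement membrane collagen, was the eighth most abundant row of the whole table, at 3910, 3605 and 3885 FPKM in MEOX2 libraries and 3969, 4065 and 3799 FPKM in NC. It supplied 92.1% to 92.4% of the summed FPKM of the 18 MMP genes in every library. ADAMTS2, which trims the amino-terminal propeptide from fibrillar procollagens, took the same place among ADAMTS genes with 78.7% to 81.7% of the sum in MEOX2 libraries and 78.3% to 79.7% in NC. Each family was thus led by the same enzyme in all 6 libraries, and the ranges of both shares overlapped between the groups. Such levels are per base of the deposited gene models, whose lengths differ in kind (654 bases for TIMP2, 1255 for TIMP1 and 2860 for TIMP3), so ranks between genes depend on those models.

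**Figure D1:**
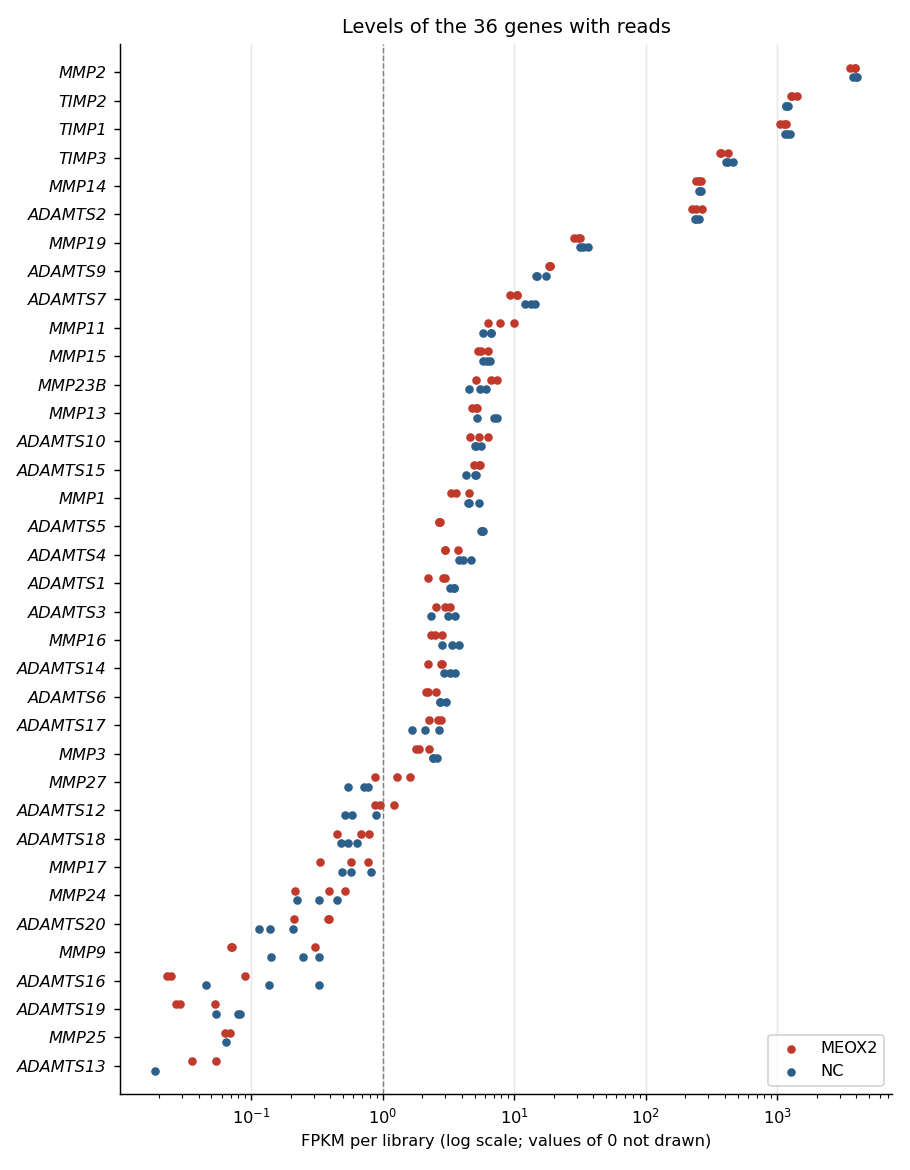
FPKM in each library (log axis, values of 0 not drawn) for the 36 genes with reads in at least 1 library, MEOX2 above NC within each gene, and a dashed line at the 1 FPKM filter. MMP2 lies at 3605 to 4065 FPKM, and ADAMTS5 has its 3 MEOX2 points between 2.68 and 2.75 FPKM, to the left of its NC points.

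The proteoglycan-cleaving ADAMTS genes held both the called gene and values in the other direction. ADAMTS5 (ENSOARG00000014877, chromosome 1, 127592697 to 127646617, plus strand; genome build not stated in the labels or the table) had 2.70, 2.68 and 2.75 FPKM in MEOX2 libraries and 5.84, 5.60 and 5.73 FPKM in NC. The groups did not overlap, with coefficients of variation of 1.34% in MEOX2 libraries and 2.06% in NC. At 207 to 477 reads per library counting error alone would be larger, so these spreads of 3 values understate the error. ADAMTS5 was at a 0.474-fold level with MEOX2, a log2 change of -0.86 (SE 0.10, 95% interval -1.09 to -0.62, limma adjusted p = 0.00533). With 1 added to each value that change is understated; on the recovered reads limma voom gave -1.08 (adjusted p = 6.34e-07). The call held in all 6 fits that left out a library, with changes of -0.87 to -0.84 and limma adjusted p values up to 0.0378, the highest without NC sample 1.

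ADAMTS4, the other classical aggrecanase, had 3.72, 3.01 and 2.98 FPKM in MEOX2 libraries and 4.72, 4.08 and 3.84 FPKM in NC. ADAMTS1, a versican-cleaving enzyme first described as an inflammation-linked gene in mouse, had 2.86, 3.01 and 2.22 FPKM in MEOX2 libraries and 3.47, 3.52 and 3.24 FPKM in NC. In both, every MEOX2 library lay below every NC library, but the groups came close and neither was called (log2 changes -0.30 and -0.26, limma adjusted p = 0.350 and 0.459). ADAMTS1 is the next row of the table after ADAMTS5 on chromosome 1, 102024 bases away with no other row between them. Whether the change of ADAMTS5 differed from that of its neighbour was not tested.

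ADAMTS9, a versicanase also needed for cilia, was the most abundant gene of this subgroup and lay the other way, at 18.6, 18.3 and 18.7 FPKM in MEOX2 libraries and 14.6, 14.9 and 17.5 FPKM in NC. Its MEOX2 values all lay above NC, where sample 3 sat closest to them. ADAMTS9 was not called (log2 change 0.23, 95% interval 0.02 to 0.44, limma adjusted p = 0.300). ADAMTS15, also a proteoglycanase, was at 5.30 ± 0.306 FPKM in MEOX2 libraries and 4.84 ± 0.431 FPKM in NC and was not called. Summed over the 7 genes of the subgroup, the level was 32.3 to 33.8 FPKM in MEOX2 libraries and 32.6 to 35.6 FPKM in NC, so the totals overlapped. Within that sum ADAMTS5 gave 7.99% to 8.51% with MEOX2 and 16.1% to 17.2% in NC, which restates the called gene. ADAMTS9 gave 55.1% to 57.95% with MEOX2 and 43.2% to 49.15% in NC, a share that a lower ADAMTS5 value raises by itself. These shares were chosen after the values were seen and are given with no test.

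**Figure D2:**
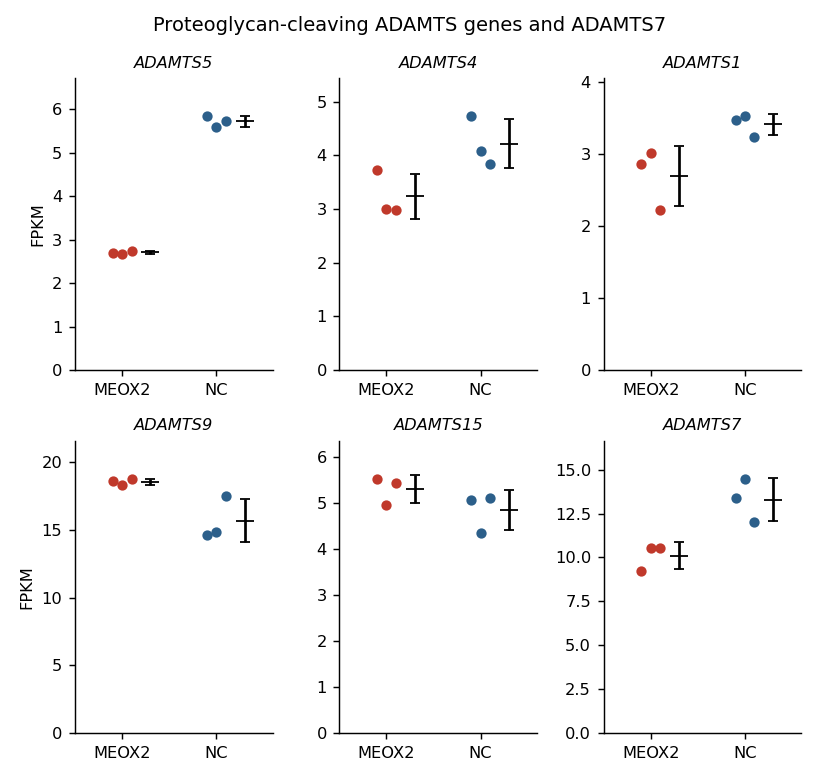
FPKM per library (points; linear axes from 0) with the mean and SD of 3 libraries (black bars), MEOX2 left of NC, for 5 proteoglycan-cleaving ADAMTS genes and ADAMTS7. ADAMTS5, the called gene, has means of 2.71 FPKM in MEOX2 libraries and 5.72 FPKM in NC.

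Of the remaining ADAMTS genes, ADAMTS7, which cuts cartilage oligomeric matrix protein, came nearest to the threshold. It had 9.24, 10.6 and 10.5 FPKM in MEOX2 libraries and 13.4, 14.5 and 12.0 FPKM in NC. The groups did not overlap and rested on 504 to 848 reads per library, yet it was not called by limma (log2 change -0.36, SE 0.10, adjusted p = 0.129). On the recovered reads limma voom did call it lower (-0.39, adjusted p = 0.0216). Its relative with the same substrate, ADAMTS12, was below the filter, at 1.01 ± 0.178 FPKM in MEOX2 libraries and 0.663 ± 0.195 FPKM in NC, with overlapping groups.

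The procollagen N-proteinases ADAMTS2, ADAMTS3 and ADAMTS14 remove the amino-terminal propeptide so that collagen can form fibrils. ADAMTS2 had 267.9, 226.1 and 239.6 FPKM in MEOX2 libraries and 237.1, 254.2 and 241.4 FPKM in NC. Its groups overlapped fully, and the 95% interval of its log2 change ran from -0.19 to 0.18. ADAMTS14 had 2.77, 2.20 and 2.82 FPKM in MEOX2 libraries and 3.25, 3.54 and 2.91 FPKM in NC, below NC in every library by a thin margin and not called (limma adjusted p = 0.517). ADAMTS3 was at 2.94 ± 0.349 FPKM in MEOX2 libraries and 3.02 ± 0.619 FPKM in NC. ADAMTS6 and ADAMTS10, which are linked to fibrillin microfibrils, were split: ADAMTS6 had 2.56, 2.20 and 2.14 FPKM in MEOX2 libraries and 3.05, 2.73 and 2.73 FPKM in NC, with no overlap and no call (limma adjusted p = 0.534), whereas ADAMTS10 overlapped at 5.47 ± 0.857 FPKM in MEOX2 libraries and 5.23 ± 0.289 FPKM in NC. ADAMTS17, which is mutated in a human Weill-Marchesani-like syndrome, was at 2.57 ± 0.268 FPKM in MEOX2 libraries and 2.16 ± 0.503 FPKM in NC and was not called.

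None of 10 MMP genes tested was called by limma or by limma voom, while 1, MMP13, had an unadjusted p under 0.05. The membrane-type enzyme MMP14, which activates proMMP2 at the cell surface, had 264.2, 239.6 and 252.4 FPKM in MEOX2 libraries and 255.8, 264.4 and 256.7 FPKM in NC. MMP2 and MMP14 therefore both overlapped between the groups, with 95% intervals of the log2 change from -0.23 to 0.12 and from -0.20 to 0.12. MMP15, another membrane-type enzyme, was at 5.78 ± 0.523 FPKM in MEOX2 libraries and 6.20 ± 0.371 FPKM in NC. MMP16, a membrane-type enzyme as well, had 2.32, 2.84 and 2.50 FPKM in MEOX2 libraries and 2.84, 3.39 and 3.80 FPKM in NC, where MEOX2 sample 2 and NC sample 1 nearly met. It was not called (log2 change -0.29, limma adjusted p = 0.424).

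MMP19, a secreted enzyme that cuts basement membrane proteins, had 30.8, 28.4 and 31.5 FPKM in MEOX2 libraries and 33.1, 36.4 and 31.6 FPKM in NC. MEOX2 sample 3 and NC sample 3 were almost equal, and the gene was not called (log2 change -0.15, 95% interval -0.34 to 0.04). Of the 10 MMP genes tested, MMP11 and MMP23B had a positive log2 change, 0.29 and 0.21, and both groups overlapped in each. MMP11, stromelysin-3, was at 8.09 ± 1.86 FPKM in MEOX2 libraries and 6.36 ± 0.471 FPKM in NC, and MMP23B at 6.42 ± 1.14 FPKM in MEOX2 libraries and 5.42 ± 0.811 FPKM in NC. The row of MMP11 overlaps that of CABIN1 on the same strand, and the row of MMP23B overlaps that of CDK11B on the opposite strand. CABIN1 averaged 5.61 FPKM and CDK11B 17.7 FPKM. Strand cannot separate the reads that MMP11 and CABIN1 share, and for MMP23B and CDK11B the strand setting of the counting is not given, so both MMP values are uncertain.

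The interstitial collagenases MMP13 and MMP1 and the stromelysin MMP3, which cuts proteoglycans and activates other MMPs, lie in a run of 7 MMP rows on chromosome 15 between 5258462 and 5717067. All 3 had negative log2 changes with none called. MMP13 had 5.21, 5.12 and 4.77 FPKM in MEOX2 libraries and 7.46, 5.20 and 7.02 FPKM in NC, where sample 2 fell among the MEOX2 values. MMP1 had 3.30, 4.57 and 3.64 FPKM in MEOX2 libraries and 5.42, 4.45 and 4.51 FPKM in NC, overlapping through MEOX2 sample 2. MMP3 did not overlap, at 1.90, 2.27 and 1.80 FPKM in MEOX2 libraries and 2.61, 2.41 and 2.43 FPKM in NC, and rested on 49 to 71 reads per library. Their log2 changes were -0.31, -0.27 and -0.22, with limma adjusted p values of 0.350, 0.464 and 0.537.

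Of the other 4 MMP rows of that run, MMP27 was the one with reads. MMP8, MMP20 and MMP7 were listed at 0 in all 6 libraries. An unnamed row (ENSOARG00000004930) lies in the same span and is not a member. MMP27 had 1.28, 0.877 and 1.61 FPKM in MEOX2 libraries and 0.779, 0.721 and 0.547 FPKM in NC, every MEOX2 library above every NC library, unlike MMP13, MMP1 and MMP3. It had 13 to 38 reads per library and a mean of 0.969 FPKM, just under the filter; fitted without the filter it was not called (log2 change 0.41, SE 0.14, limma adjusted p = 0.334). The next gene above the filter was MMP3, at a mean of 1.99 FPKM in MEOX2 libraries and 2.48 FPKM in NC.

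**Figure D3:**
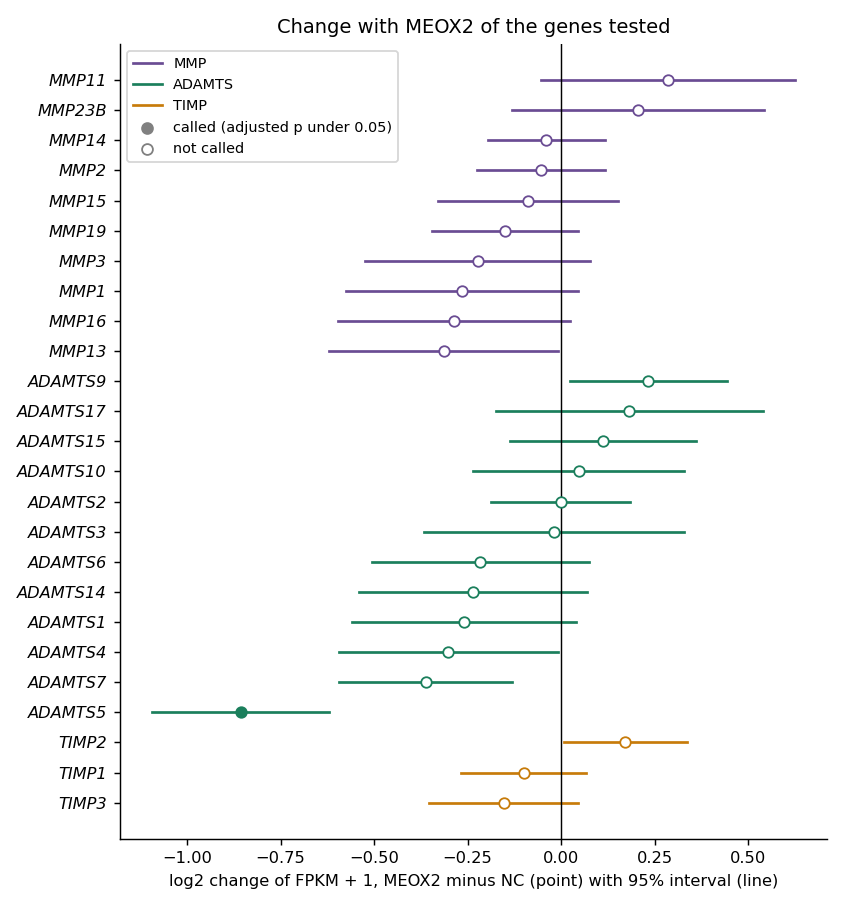
Log2 change of FPKM + 1, MEOX2 minus NC, with its 95% interval for the 25 genes tested, MMP at the top, then ADAMTS and TIMP; filled points are called. ADAMTS5 at -0.86 is the filled point, and 18 of the 25 points lie left of 0.

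The inhibitors were among the most abundant transcripts of the set, and none was called. TIMP2, which inhibits MMPs and also helps MMP14 to activate proMMP2, had 1266, 1408 and 1301 FPKM in MEOX2 libraries and 1208, 1158 and 1159 FPKM in NC. All MEOX2 values lay above all NC values, 12.7% higher on average, without a call (log2 change 0.17, 95% interval 0.01 to 0.34, limma adjusted p = 0.344). TIMP1, a secreted inhibitor of most MMPs, had 1051, 1133 and 1162 FPKM in MEOX2 libraries and 1196, 1241 and 1148 FPKM in NC, and overlapped through MEOX2 sample 3 and NC sample 3 (log2 change -0.10, 95% interval -0.27 to 0.07). Its row overlaps that of SYN1, which averaged 1.78 FPKM. TIMP3, which stays bound to the matrix, had 425.5, 364.3 and 372.7 FPKM in MEOX2 libraries and 423.5, 405.1 and 464.1 FPKM in NC, overlapping through MEOX2 sample 1 (log2 change -0.15, 95% interval -0.35 to 0.04).

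TIMP1 and TIMP2 lay in opposite directions, and the summed level of the inhibitors overlapped between the groups. The 3 inhibitors summed to 2743, 2905 and 2836 FPKM in MEOX2 libraries and 2828, 2804 and 2772 FPKM in NC. The ratio of summed TIMP to summed MMP FPKM was 0.647 to 0.743 with MEOX2 and 0.637 to 0.672 in NC, with MEOX2 sample 1 inside the NC range. The ratio of TIMP1 to TIMP2, chosen after the values were seen and given with no test, was 0.805 to 0.894 with MEOX2 and 0.991 to 1.07 in NC, with no overlap. These ratios are of transcripts and do not measure protein or enzyme activity.

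**Figure D4:**
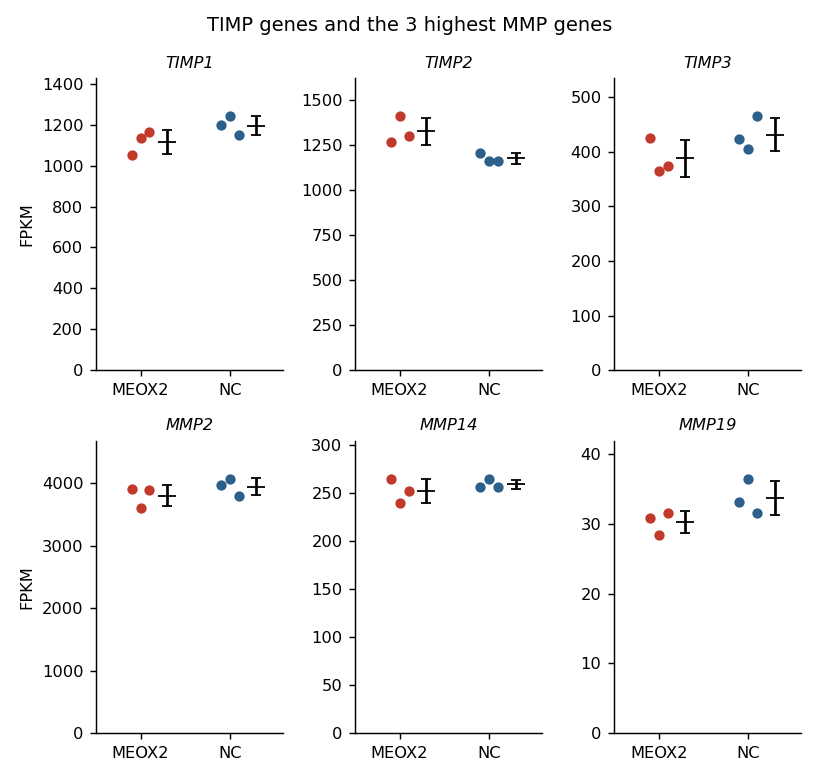
FPKM per library (points; linear axes from 0) with the mean and SD of 3 libraries (black bars), MEOX2 left of NC, for the 3 TIMP genes and the 3 most abundant MMP genes. The groups are close in every panel; TIMP2 and MMP19 do not overlap, TIMP2 higher and MMP19 lower with MEOX2.

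Across the 22 proteases tested, values leaned lower with MEOX2, mostly short of the threshold for single genes, and 16 of 22 had a negative log2 change (50.7% of all genes tested). In 9 of 22 every MEOX2 library lay below every NC library (9.33% of all genes tested did so), and in 1 of 22 every MEOX2 library lay above (9.60% of all genes). The 9 were ADAMTS5, ADAMTS7, ADAMTS4, ADAMTS1, ADAMTS14, ADAMTS6, MMP16, MMP19 and MMP3, and the 1 was ADAMTS9. By family this was 6 of 12 ADAMTS genes and 3 of 10 MMP genes below, and 1 and 0 above. Several of these separations were narrow, and with quantile normalization 6 of 22 lay below (9.46% of all genes), 5 of them among the 9. Leaving a library out can add separations but not undo any. Without NC sample 3 the counts were 10 below and 1 above, when 16.5% and 16.2% of all genes separated in those directions.

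The median log2 change of the 22 was -0.12, against -0.0027 over all genes tested. An unadjusted p under 0.05 was reached by 4 with a negative change (ADAMTS5, ADAMTS7, ADAMTS4 and MMP13; 6.35% of all genes) and by 1 with a positive change (ADAMTS9; 7.08% of all genes). The lean was larger in the less abundant proteases, a difference that was not tested: the 16 with a mean under 10 FPKM had a median of -0.22 and the 6 at or above 10 FPKM a median of -0.05, while all genes tested in those ranges had medians of -0.01 and 0.0049. With the filter raised to a mean of 5 FPKM, 12 proteases were left, ADAMTS5 no longer among them, none was called by limma, and their median was -0.02. These counts and medians describe genes that are not independent of one another and carry no test.

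**Figure D5:**
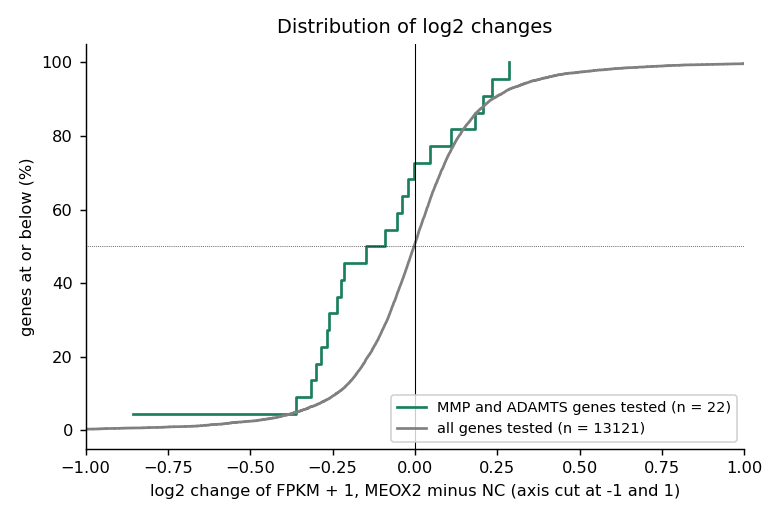
Cumulative share of genes (%) at or below each log2 change of FPKM + 1, MEOX2 minus NC, for the 22 MMP and ADAMTS genes tested (green) and all 13121 genes tested (grey), with the axis limited to -1 to 1. The green curve lies left of the grey one over most of the range below 0, with medians of -0.12 and -0.0027.

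The other 15 proteases did not pass the filter. Their highest value in any library was 1.61 FPKM for MMP27, 1.22 FPKM for ADAMTS12, 0.815 FPKM for MMP17, 0.787 FPKM for ADAMTS18 and 0.523 FPKM for MMP24. It was 0.393 FPKM for ADAMTS20, 0.328 FPKM for both MMP9 and ADAMTS16, 0.0824 FPKM for ADAMTS19, 0.0697 FPKM for MMP25 and 0.0547 FPKM for ADAMTS13. At such levels 1 to 62 reads stood behind the highest value of a gene. ADAMTS20, a relative of ADAMTS9 that pigment cell development needs in mouse, had 0.393, 0.387 and 0.211 FPKM in MEOX2 libraries and 0.115, 0.141 and 0.209 FPKM in NC, with 8 to 28 reads. ADAMTS19 separated the other way on 1 to 3 reads per library, too few to read a direction from. The gelatinase MMP9, which macrophages and neutrophils make in quantity, had at most 9 reads in any library, and MMP25, a leukocyte membrane-type enzyme, at most 1 read. ADAMTS13, which cuts von Willebrand factor and is made mainly in liver, had at most 3 reads. MMP8, the neutrophil collagenase, MMP20, the enamel enzyme, MMP7, matrilysin, and ADAMTS8 had 0 reads in every library; 3 reads, the limit a count of 0 allows for counting error alone, would be at most 0.317 FPKM for MMP7 and 0.0543 FPKM for MMP20. A row named ADAM10, a gene that most cell types express, also had no more than 1 read in any library, so a value of 0 in this table need not mean that a transcript was absent.

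Genes that act around these enzymes were taken as 8 lists of 80 symbols, of which 73 were matched and 49 tested. Among the 49, 2 were called higher (1.51% of all genes tested) and 1 lower (1.16%), with a median log2 change of -0.01. ADAM19, a membrane-anchored sheddase, had 55.4, 53.6 and 58.1 FPKM in MEOX2 libraries and 39.8, 37.8 and 39.8 FPKM in NC, a 1.42-fold rise (log2 change 0.50, limma adjusted p = 0.0107). SPOCK1, a secreted proteoglycan also called testican-1, had 19.8, 17.7 and 16.0 FPKM in MEOX2 libraries and 12.6, 12.1 and 13.3 FPKM in NC, a 1.41-fold rise at the edge of the threshold (0.46, limma adjusted p = 0.0499). TFPI2, a Kunitz-type inhibitor of plasmin and other serine proteases, had 304.8, 301.7 and 310.2 FPKM in MEOX2 libraries and 419.2, 396.1 and 411.0 FPKM in NC, a 0.747-fold level (-0.42, limma adjusted p = 0.0136). None of these 3 genes overlapped between the groups. The call of ADAM19 ended when MEOX2 sample 3 or NC sample 1 was left out, with a limma adjusted p of at most 0.0616. That of TFPI2 ended when MEOX2 sample 2, MEOX2 sample 3 or NC sample 1 was left out (at most 0.0906), and that of SPOCK1 whichever of the 6 libraries was left out (at most 0.171).

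By list, none of 6 genes of the plasminogen system was called by limma, 3 had an unadjusted p under 0.05, and in 4 every MEOX2 library lay below every NC library (9.33% of all genes tested). SERPINE2, the serine protease inhibitor protease nexin-1, was at 208 ± 29.0 FPKM in MEOX2 libraries and 277 ± 13.0 FPKM in NC (limma adjusted p = 0.0897). Limma voom on recovered reads called 9 of the 49 (4.37% of all genes tested): ADAM19 and SPOCK1 higher, and TFPI2, SERPINE2, PCOLCE2, PCSK5, ADAMTSL1, LAMC1 and NID1 lower. Of 6 ADAM sheddases tested, ADAM19 rose and 5 were not called, ADAM9 and ADAM17 being the most abundant at 105 ± 5.33 and 84.3 ± 0.601 FPKM in MEOX2 libraries and 102 ± 4.30 and 76.7 ± 2.85 FPKM in NC. ADAMTS-like proteins have no protease domain, and none of 3 tested was called by limma. An unadjusted p under 0.05 (13.4% of all genes tested) was reached by 2, ADAMTSL1 lower (log2 change -0.38) and ADAMTSL5 higher (0.52). ADAMTSL1 was called lower by limma voom (-0.46, adjusted p = 0.0154). ADAMTSL4 was at 16.6 ± 1.31 FPKM in MEOX2 libraries and 17.2 ± 1.17 FPKM in NC and ADAMTSL5 at 8.03 ± 0.329 FPKM in MEOX2 libraries and 5.42 ± 1.59 FPKM in NC.

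None of 6 activators and proprotein convertases was called by limma (2 had an unadjusted p under 0.05), while limma voom called the convertase PCSK5 lower (-0.38, adjusted p = 0.00942). BSG, an inducer of MMP production, was at 830.4 ± 62.5 FPKM in MEOX2 libraries and 817 ± 91.9 FPKM in NC, and CD44, a surface anchor for some MMPs, at 148 ± 10.9 FPKM in MEOX2 libraries and 132 ± 2.33 FPKM in NC. Among 7 genes of surface inhibition and clearance, SPOCK1 rose, TFPI2 fell and 5 were not called, PCOLCE, an enhancer of procollagen C-proteinase, being at 1157 ± 75.9 FPKM in MEOX2 libraries and 1170.2 ± 85.5 FPKM in NC. BMP1, the procollagen C-proteinase itself, was the single astacin-type gene tested and was not called, at 221 ± 13.0 FPKM in MEOX2 libraries and 210.2 ± 11.2 FPKM in NC, while TLL1 averaged 0.199 FPKM in MEOX2 libraries and 0.205 FPKM in NC. None of 6 cathepsin and cystatin genes was called by limma or limma voom (1 had an unadjusted p under 0.05). CTSB was at 581 ± 34.4 FPKM in MEOX2 libraries and 625 ± 38.2 FPKM in NC and CTSK at 597 ± 32.7 FPKM in MEOX2 libraries and 509 ± 18.5 FPKM in NC.

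Of 14 matrix substrate genes tested none was called by limma (4 had an unadjusted p under 0.05) and 2, LAMC1 and NID1, by limma voom, COL1A1 and COL1A2 being the most abundant at 10594 ± 759 and 7562 ± 463 FPKM in MEOX2 libraries and 9410.4 ± 767 and 6505 ± 261 FPKM in NC. For the substrates of ADAMTS5, VCAN was at 126 ± 13.2 FPKM in MEOX2 libraries and 130 ± 24.4 FPKM in NC and was not called. ACAN, the cartilage proteoglycan aggrecan, was below the filter at 0.579 ± 0.179 FPKM in MEOX2 libraries and 0.450 ± 0.065 FPKM in NC.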

How the data were processed

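The authors deposited 1 table of FPKM values for 6 libraries. Per the labels' protocols, TRIzol was used for extraction and the NEBNext Ultra kit for library preparation. The submitters' processing notes name HISAT2 2.0.5, featureCounts 1.5.0-p3, DESeq2 1.20.0, CASAVA 1.8 and fastp without roles. Neither genome build, annotation nor strand setting was stated. In each library FPKM times gene length was a whole multiple of a fixed step (100% of nonzero values, within 0.001 of a read), and these whole reads were used for depth and for limma voom.

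After removal of genes averaging under 1 FPKM, log2(FPKM + 1) values were modelled by limma 3.58.1 (R 4.3.3; lmFit and trended eBayes, MEOX2 minus NC), adjusted by Benjamini-Hochberg over 13121 genes, threshold 0.05. The fit was tested on simulated reads with a fixed spread between replicates and changes larger than most of those described here. That test does not measure how well small changes are found. Per-library sums, shares and figures used Python 3.11.15, pandas 2.3.3, scipy 1.17.1 and matplotlib 3.10.9. List symbols were matched by name or by RefSeq synonyms (assembly ARS-UI_Ramb_v3.0).

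The members and lists were chosen with earlier results of these data known. Named were all members. Values per library are given for called members, tested members whose groups did not overlap and the 8 most abundant members. Of the 8 lists of genes that act around these enzymes, called genes are given per library and the 2 most abundant otherwise as means. Called cell type markers are named, some of them without values. MMP13, MMP1, MMP27, ADAMTS20, CD34, PI16, LY6E, PDGFRA, DCN, LUM, VIM, CD14, LPL, MCAM, TAGLN, VCAN and ACAN were added after their values were seen. MMP10, MMP12, MMP28 and TIMP4 were not analysed here, and 1 gene that the rule names is not reported here. Other filters, pseudocounts, variance models and scalings were tried, as were limma voom, a replicate block and fits lacking 1 library; the counts without overlap and the median under other settings were added after seeing the data. Intervals and the limit for a count of 0 cover counting or replicate error only, as stated.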

Additional observations from a re-analysis of the deposited data

How the results depend on the processing

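MEOX2 and ADAMTS5 kept their direction and their call in each alternative that tested them (ADAMTS5 in 15, with log2 changes of -1.08 to -0.84), and no TIMP gene was called in any. No pairing of the samples by replicate number was seen. Deviations of same-numbered libraries correlated at -0.0747, 0.0204 and -0.0042, and not every library correlated best with its own number. With 3 libraries per group these values cannot settle whether the samples were paired. With the replicate block 1 protease, 2 of the other proteolysis genes and 242 genes in all were called, against 1, 3 and 350 without it. The 350 genes called became 194 with no filter and 574 with limma voom on recovered reads, and 117 to 276 with a library left out. The protease count of 1 became 0 with the filter at a mean of 5 FPKM, which removes ADAMTS5 from the test, and 2 with limma voom; it was 1 whichever library was left out. The count of 3 other proteolysis genes became 9 with limma voom and 0 to 4 with a library left out. Leaving a library out cannot undo a separation, so the 9 proteases below NC stayed separated by construction. The counts were then 9 to 12 of 22 below and 1 to 2 above NC. Over all genes the shares in these fits were 12.6% to 16.5% below and 12.9% to 16.2% above. With TPM scaling and quantile normalization, 8 and 6 of 22 lay below NC, against 9.18% and 9.46% of all genes. Of 390 alternative values of the 25 genes tested, 8 changed sign, all in MMP2, ADAMTS2, ADAMTS3 or ADAMTS10, none of which was called. SPOCK1 passed the threshold in 4 of its 16 alternatives, TFPI2 in 13, ADAM19 in 14 and ADAMTS7 in 1, limma voom. The 15 proteases under the filter had at most 62 reads in any library, which limits what can be seen of them.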
